A study of Homo sapiens with 4 samples.

Results

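The genes described here encode the degradative machinery of the lysosome: cathepsin proteases, glycosidases, sulfatases, lipid hydrolases, their cofactors, proteins of the lysosomal membrane, and TFEB, the transcription factor that drives many of these genes. They were chosen by name, as the non-control probes of 4 microarrays whose gene name was on a list of 49 genes. These genes had 63 of the 34127 probes. Of the 49 genes, 37 had 1 probe, 10 had 2 probes, and CTSC and LAMP2 had 3 probes each.

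Lysosomes are acidic organelles in which proteins, glycans, glycosaminoglycans and lipids taken up or discarded by the cell are broken down. Most of their hydrolases carry a mannose 6-phosphate tag that directs them there, and cathepsins become active when their propeptide is cut off in the acid lumen. In monocytes and macrophages these enzymes digest phagocytosed material and cut antigens for presentation. TFEB enters the nucleus when nutrient signalling at the lysosomal surface falls, and binds a short promoter sequence found in front of many lysosomal genes.

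THP1, an established human line grown from an acute monocytic leukaemia and carrying the MLL-AF9 fusion gene, was transfected once with a synthetic miRNA precursor at 30 nM. The precursor was either hsa-miR-511-5p (here miR-511 mimic, 2 arrays) or negative control #1, an Ambion precursor used as control mimic (2 arrays). The cells were kept in low-serum medium and RNA was taken on day 2. Each treatment was measured once in each of 2 independent experiments, 1 and 2, so every comparison below rests on the same 4 arrays, and an untransfected sample was not analysed here. All cells had therefore been transfected, and the cell line is the only one measured. Single-dye Agilent arrays gave 1 fluorescence intensity per spot, which was analysed as a quantile-normalized log2 intensity.

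The 4 arrays had 64.8% to 69.3% of their probes well above background, as the scanner software judges it, and no saturated spots. All 9 monocytic or myeloid markers with a probe (among them CD14, CD33, CD68, CSF1R, MPO and SPI1) were well above background on every array. Of 11 genes marking other cell types, 5 (CDH5, PECAM1 and HBB among them) were well above background on all 4 arrays and 5 on none. None of these markers passed the unadjusted threshold by treatment, but CD68 and CSF1R, both lower in experiment 2 by 0.29 and 0.25 on the log2 scale, passed it between the experiments; their part in the results was not tested. In cultured cells measured in bulk, fewer cells of a kind and less RNA per cell cannot be told apart.

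The mature miRNA of the mimic is shown because its seed, bases 2 to 8 in capitals, is the part that pairs with target transcripts. The sequence is that of RefSeq on GRCh38.p14, chr10:17845122-17845142, plus strand.
hsa-miR-511-5p: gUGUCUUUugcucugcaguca
The DNA letters that pair with this seed, AAAGACA, were in 0 of the 63 member probes and in 331 of all 34127 probes (0.97%). A probe covers 60 bases of its transcript, so this count says nothing of the rest of the transcript, and 3′UTRs were not analysed here.

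TFEB and its relatives bind the letters CACGTG, an E-box. RefSeq promoter windows of GRCh38.p14, from 250 bases before to 50 after a gene's start, were held for 35 of the 49 genes, and both strands were searched (both motifs read the same on either). CACGTG was in a window of 10 of the 35 genes (28.6%) against 8.77% of all 27305 genes with a window: ACP5, ARSB, CD63, CTSA, CTSD, CTSF, GAA, LAMP1, MCOLN1 and NEU1. TCACGTGA, which contains CACGTG, was in 4 of them (CTSA, GAA, LAMP1 and MCOLN1; 11.4%, against 1.18%). A match is a description of the letters and not a shown binding site. Windows are printed for genes whose values the results turn on, with CACGTG in capitals.
GAA, chr17:80101495-80101520, plus strand: gaggccgcgtCACGTGacccaccgcg
GAA, chr17:80101540-80101565, plus strand: tcccgccggtCACGTGacccgcctct
LAMP1, chr13:113297201-113297226, plus strand: cccgcgggatCACGTGacgcccgggc
NEU1, chr6:31862932-31862957, minus strand: gctgcgtgatCACGTGggaggagatg
CTSF, chr11:66568714-66568739, minus strand: atataacaagCACGTGatagaggtca
CTSD, chr11:1763959-1763984, minus strand: cggccgcgccCACGTGaccggtccgg
MCOLN1, chr19:7522600-7522625, plus strand: gctaccgggtCACGTGaccgaggcac

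Nearly all of these genes were measured well above background. A gene was followed at its representative probe, the tested probe with the highest mean, and to be tested a probe had to be well above background on each array of a treatment, either or both. On all 4 arrays, 46 of the 49 genes were well above background. CTSE, an endosomal aspartic protease, and ACP5, the tartrate-resistant acid phosphatase of osteoclasts and macrophages, were so on 3 arrays, failing with miR-511 mimic in experiment 1. LAMP3, the lysosome-associated membrane protein of dendritic cells, was well above background on none of the arrays and was not tested, which left 48 genes with 62 tested probes. The dim CTSE probe is printed 10 times on each array, and well above background were 3 of its spots with miR-511 mimic and 7 with control mimic in experiment 1, and 9 with either in experiment 2. NPC1, FUCA1 and GUSB, also printed 10 times, had all 10 spots well above background on every array, with a spot SD of 0.04 to 0.13 against 0.25 to 0.54 for CTSE.

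**Figure D1:**
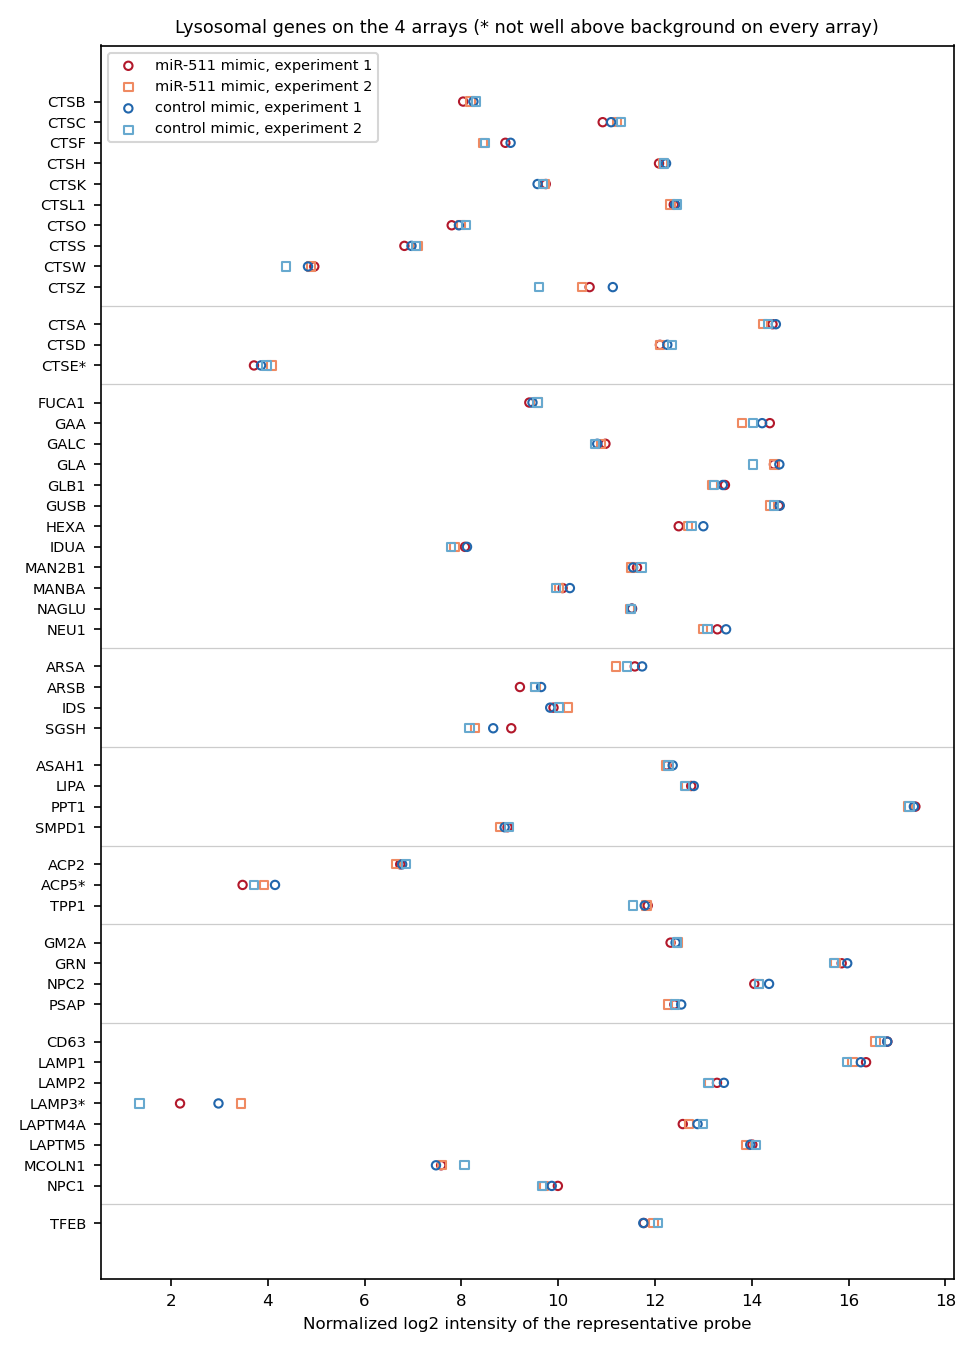
Normalized log2 intensity (x axis) of the representative probe of each of the 49 genes (rows, grouped by role) on the 4 arrays, with circles for experiment 1 and squares for experiment 2, red for miR-511 mimic and blue for control mimic. The 4 points of most genes lie close together, CTSZ spreads from 9.61 to 11.13, and LAMP3, CTSE and ACP5 carry an asterisk because they were not well above background on every array; intensities of different probes are not comparable.

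The first comparison asks what the miR-511 mimic changed. Lysosomal genes differed little: 1 of the 48 tested genes, LAPTM4A, passed an unadjusted p of 0.05, against 2.12% of the 18001 genes tested (1.23% as higher and 0.889% as lower with miR-511 mimic). Counted over probes, 2 of 62 passed, LAPTM4A and a second ACP2 probe, against 2.2% of all tested probes. No gene passed the Benjamini-Hochberg adjusted threshold, here or among all 22638 tested probes, and the smallest adjusted p of the 48 was 1.00. The differences, miR-511 minus control mimic, ran from -0.30 (LAPTM4A) to 0.33 (CTSW) on the log2 scale, with a median of -0.06 against 0.01 over all tested genes. The median standard error of a difference was 0.13, so most of these differences were smaller than their error. For a single gene the smallest two-sided p of an exact permutation test of 2 against 2 arrays is 0.333.

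Of the 48 genes, 35 (72.9%) were lower with miR-511 mimic, against 45.9% of all tested genes, and 13 were higher (background 54.1%). That split depended on which single array was left out. Without the miR-511 array of experiment 2 it was 24 of 48, and without the control array of experiment 1 it was 25. Without the miR-511 array of experiment 1 it was 35, and without the control array of experiment 2 it was 38. In experiment 1, 18 genes were higher with miR-511 mimic and in experiment 2, 21. The direction was the same in both for 25 of 48 genes (52.1%), against 51.7% of all tested genes, with 17 lower in both (background 21.8%) and 8 higher in both (background 29.9%). The miR-511 and control arrays did not overlap for 14 genes (29.2%), against 25.8%.

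LAPTM4A, a membrane protein of late endosomes and lysosomes, had log2 intensities of 12.57 and 12.70 with miR-511 mimic in experiments 1 and 2, and of 12.88 and 13.00 with control mimic. Both miR-511 arrays lay below both control arrays, by 0.31 in experiment 1 and 0.30 in experiment 2. The difference was -0.30 with a standard error of 0.11 (limma, unadjusted p = 0.0446, adjusted p = 1.00), at a probe at chr2:20232476-20232535 of hg19, minus strand. Leaving out any single array lifted p to between 0.0681 and 0.189, with differences of -0.24 to -0.36. Its relative LAPTM5, found in lysosomes of blood cells, differed by -0.07.

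ACP2, lysosomal acid phosphatase, passed the threshold at its dimmer probe only. That probe (hg19 chr11:47267224-47267283) gave 4.44 and 4.75 with miR-511 mimic against 4.94 and 5.11 with control mimic, a difference of -0.43 (standard error 0.15, unadjusted p = 0.0444). Its brighter probe (hg19 chr11:47264389-47264448) gave 6.73 and 6.64 against 6.78 and 6.86, a difference of -0.13 (unadjusted p = 0.258). Both probes were lower with miR-511 mimic in each experiment.

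Of the 10 cysteine cathepsins, 7 were lower with miR-511 mimic (45.9% of all tested genes) and 3 higher, and none passed the threshold. CTSB, an abundant endopeptidase and carboxypeptidase, had 8.04 and 8.19 with miR-511 mimic against 8.25 and 8.29 with control mimic (difference -0.16, unadjusted p = 0.196). The arrays of the treatments did not overlap, but the difference was under 2 standard errors of 0.10. CTSS, which cuts the invariant chain in antigen-presenting cells, had 6.82 and 7.10 against 6.97 and 7.07, and CTSL1, the broad endopeptidase now named CTSL, 12.39 and 12.32 against 12.42 and 12.45. Neither difference, -0.06 and -0.08, exceeded its standard error. The highest difference of all was that of CTSW, a cathepsin of cytotoxic lymphocytes, with 4.96 and 4.89 against 4.83 and 4.37 (0.33, standard error 0.18, unadjusted p = 0.146). Only the control array of experiment 2 stood off from the other 3 CTSW values.

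All 3 aspartic and serine cathepsins were lower with miR-511 mimic (45.9% of all tested genes) and none passed. CTSD, the main aspartic protease of the lysosome, had 12.10 on both miR-511 arrays against 12.25 and 12.36 on the control arrays. The difference of -0.20 (standard error 0.09, unadjusted p = 0.0964) had the same sign in both experiments. CTSA, a serine carboxypeptidase that also protects neuraminidase and beta-galactosidase, differed by -0.08, and CTSE, near background, by -0.02.

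Among 12 glycosidases, 8 were lower with miR-511 mimic (45.9% of all tested genes) and none passed. HEXA, the alpha subunit of beta-hexosaminidase, had 12.49 and 12.68 with miR-511 mimic against 13.00 and 12.75 with control mimic. Its difference of -0.29 (standard error 0.14, unadjusted p = 0.101) came to -0.51 in experiment 1 and -0.07 in experiment 2, so it lay mostly in experiment 1. GALC, which removes galactose from galactosylceramide, had 10.98 and 10.88 against 10.81 and 10.76 (0.14, unadjusted p = 0.206). GLA, alpha-galactosidase A, went in opposite directions, -0.11 in experiment 1 and 0.44 in experiment 2. The other glycosidases differed by -0.14 (NEU1) to 0.01 (IDUA).

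The sulfatases, which strip sulfate from glycosaminoglycans and sulfatide, split evenly: ARSA and ARSB were lower with miR-511 mimic and SGSH and IDS higher. SGSH, heparan N-sulfatase, had 9.03 and 8.28 with miR-511 mimic against 8.66 and 8.16 with control mimic (0.24, unadjusted p = 0.493). ARSA, arylsulfatase A, had 11.58 and 11.20 against 11.73 and 11.43 (-0.19, unadjusted p = 0.38). For both genes the treatments overlapped, and both mimics were lower in experiment 2. With the experiment number as a term in the fit, unadjusted p was 0.11 for SGSH and 0.0998 for ARSA (limma), so neither passed. IDS, iduronate 2-sulfatase, had 9.90 and 10.21 against 9.83 and 10.02, and differed by 0.13. ARSB, arylsulfatase B, was lower by 0.44 in experiment 1 and differed by 0.02 in experiment 2.

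The lipid hydrolases ASAH1, LIPA and SMPD1 and the thioesterase PPT1 differed by -0.09 to 0.00, with none past the threshold. Of these 4, 3 were below 0 (45.9% of all tested genes). TPP1, the tripeptidyl peptidase of the lysosome, had 11.85 and 11.83 with miR-511 mimic against 11.79 and 11.54 with control mimic, a difference of 0.17 (unadjusted p = 0.228). Its second probe differed by 0.01. ACP5 differed by -0.67 in experiment 1, where its miR-511 value was not well above background, and by 0.20 in experiment 2.

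All 4 cofactors and luminal carriers were lower with miR-511 mimic (45.9% of all tested genes), and none passed. PSAP, the precursor of the saposins that present lipids to their hydrolases, had 12.40 and 12.27 against 12.54 and 12.42 at its brighter probe. That probe was lower by 0.14 in each experiment (limma, unadjusted p = 0.254). The second PSAP probe differed by 0.06 in experiment 1 and -0.27 in experiment 2. NPC2, which hands cholesterol to NPC1, had 14.05 and 14.15 against 14.36 and 14.15, so it was lower by 0.31 in experiment 1 alone. GRN, progranulin, had 15.86 and 15.73 against 15.97 and 15.70 and differed by -0.04, as did GM2A, the activator of GM2 ganglioside breakdown.

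Apart from LAPTM4A, the membrane proteins showed no difference past the threshold. LAMP1, a heavily glycosylated protein of the lysosomal membrane, had 16.36 and 16.08 with miR-511 mimic against 16.25 and 15.96 with control mimic, higher by 0.11 and 0.12. LAMP2, its relative, had 13.28 and 13.12 against 13.42 and 13.11 at its brightest probe (-0.07). The dimmer LAMP2 probes differed by 0.01 and -0.16, and neither passed. The tetraspanin CD63 had 16.80 and 16.56 against 16.80 and 16.66 (-0.05). At their representative probes these 3 genes differed by less than the spread between the experiments. NPC1, the cholesterol exporter, had 9.99 and 9.71 against 9.87 and 9.67 (0.08). MCOLN1, the calcium channel TRPML1, had 7.58 and 7.60 with miR-511 mimic but 7.47 and 8.06 with control mimic, so its difference was 0.11 in experiment 1 and -0.47 in experiment 2. TFEB itself had 11.77 and 11.97 against 11.76 and 12.07 at its brighter probe, a difference of -0.05 (limma, unadjusted p = 0.784). Its second probe differed the other way, by 0.18 (limma, unadjusted p = 0.17), with 0.29 in experiment 1 and 0.06 in experiment 2.

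**Figure D2:**
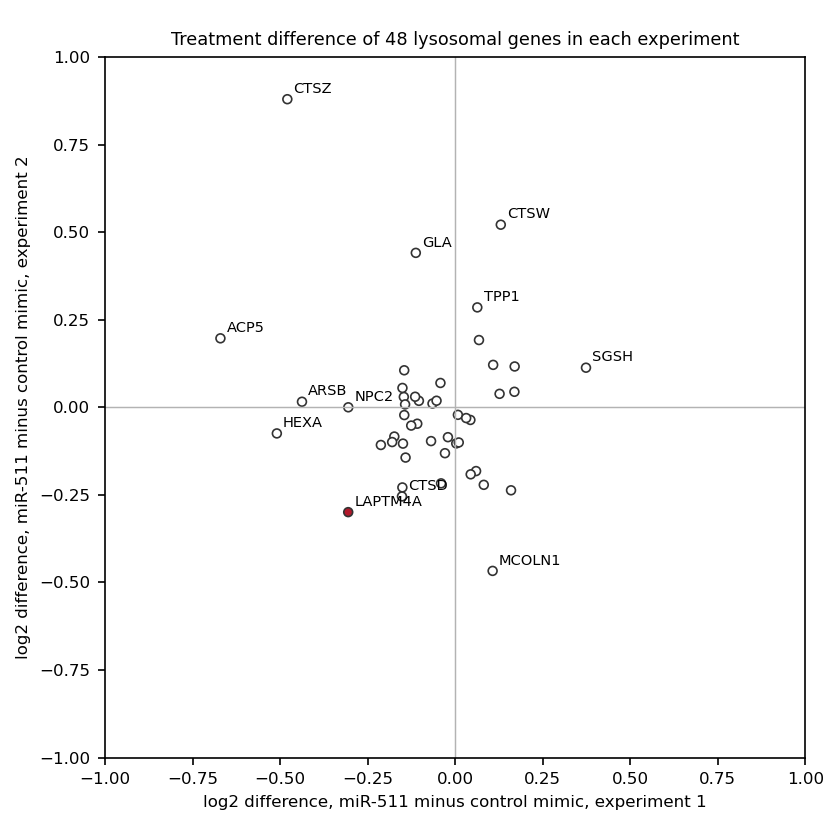
log2 difference, miR-511 minus control mimic, of each of the 48 tested genes at its representative probe in experiment 1 (x axis) and experiment 2 (y axis); each point is a difference of 2 arrays and so has no error bar, and the filled point is LAPTM4A, the only gene past an unadjusted p of 0.05 in limma. CTSZ (-0.48, 0.88), GLA (-0.11, 0.44), ACP5 (-0.67, 0.20) and MCOLN1 (0.11, -0.47) lie in opposite directions in the experiments, and 25 of 48 points lie in the lower left or upper right.

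The second comparison sets experiment 2 against experiment 1 over both mimics, and shows the spread against which the treatment was judged. What differed between the experiments besides their number is not given in the sources used here. More lysosomal genes passed here than by treatment: 11 of 48 (22.9%) had an unadjusted p under 0.05, against 13.8% of all tested genes. Each experiment holds both mimics, and with treatment as a term in the fit 6 of 48 passed (12.5%), close to the 11.8% of all tested genes. CTSF, LAMP1, IDUA, NEU1, SGSH and ARSA were these 6, while LAMP2, NPC1, GAA, GLB1 and TFEB lost their calls with unadjusted p of 0.0575 to 0.0739. The p-values below are those of the fit without that term. Of the 11, 10 were lower in experiment 2 (background 8.43% of genes) and 1, TFEB, was higher (background 5.38%). None passed after adjustment, and the smallest adjusted p was 0.226, for CTSF. In all, 31 of 48 (64.6%) were lower in experiment 2, against 53.1%, and 17 were higher (background 46.9%), and the median difference was -0.05, against -0.01. The arrays of the experiments did not overlap for 28 genes (58.3%), against 49.5%, with 9 of them higher in experiment 2 (background 22.3%) and 19 lower (background 27.2%). With both mimics the direction was the same for 35 genes, against 63.3% of all tested genes. The values of 4 arrays are given below as miR-511 mimic and control mimic of experiment 1, then the same of experiment 2.

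CTSF, an endopeptidase of macrophage lysosomes whose promoter window holds CACGTG, had 8.91 and 9.02 in experiment 1 and 8.45 and 8.49 in experiment 2. Both values of experiment 2 lay well below both of experiment 1, and the drop was alike with either mimic (-0.46 and -0.52). The difference was -0.49 (standard error 0.08, unadjusted p = 0.00336). It was the only one of the 11 genes past the threshold in all 14 alternative settings. No other cysteine cathepsin passed, and 6 of the 10 were higher in experiment 2 (46.9% of all tested genes).

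CTSZ, a carboxypeptidase, had the widest difference of all, -0.84 (standard error 0.36, unadjusted p = 0.0815), from 10.65 and 11.13 in experiment 1 and 10.49 and 9.61 in experiment 2. The values of 3 arrays lay between 10.49 and 11.13, and the control array of experiment 2 stood alone below them. CTSC, dipeptidyl peptidase I, which activates granule serine proteases, had 10.92 and 11.09 against 11.22 and 11.30 (0.25, unadjusted p = 0.058). CTSE differed by 0.24, CTSB by 0.10 and CTSS by 0.19, with none past the threshold.

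Glycosidases were lower in experiment 2 for 10 of 12 genes (53.1% of all tested genes), and 4 passed (13.8% of all tested genes). With a treatment term only IDUA and NEU1 of the 4 passed. GAA, acid alpha-glucosidase, which breaks down glycogen and whose promoter window holds TCACGTGA at the 2 places printed above, had 14.37 and 14.21 in experiment 1 and 13.79 and 14.03 in experiment 2. It was lower with both mimics, by 0.58 with miR-511 mimic and by 0.18 with control mimic (difference -0.38, standard error 0.12, unadjusted p = 0.0345). NEU1, the lysosomal sialidase, had 13.29 and 13.47 against 12.99 and 13.08 (-0.34, unadjusted p = 0.0254). GLB1, beta-galactosidase, had 13.45 and 13.40 against 13.19 and 13.22 (-0.22, unadjusted p = 0.0341). IDUA, alpha-L-iduronidase, had 8.07 and 8.11 against 7.85 and 7.78 (-0.27, unadjusted p = 0.019). In each of these 4 the experiments did not overlap. FUCA1, alpha-L-fucosidase, was 1 of the 2 glycosidases that were higher in experiment 2 (0.14), the other being MAN2B1 (0.02).

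Of the 4 sulfatases, 2 passed (13.8% of all tested genes), both lower. SGSH had 9.03 and 8.66 in experiment 1 and 8.28 and 8.16 in experiment 2 (-0.62, standard error 0.15, unadjusted p = 0.0159). ARSA had 11.58 and 11.73 against 11.20 and 11.43 (-0.35, standard error 0.12, unadjusted p = 0.0422). The other sulfatases went the other way without passing: IDS differed by 0.24, with no overlap between the experiments, and ARSB by 0.10.

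Among the 7 membrane proteins tested, 3 passed (13.8% of all tested genes), again lower in experiment 2. With a treatment term only LAMP1 of the 3 passed. LAMP1 had 16.36 and 16.25 in experiment 1 and 16.08 and 15.96 in experiment 2 (-0.29, unadjusted p = 0.0316). LAMP2 had 13.28 and 13.42 against 13.12 and 13.11 (-0.24, unadjusted p = 0.0445), and NPC1 had 9.99 and 9.87 against 9.71 and 9.67 (-0.24, unadjusted p = 0.0412). With either mimic the 3 genes were lower in experiment 2. CD63 differed by -0.19 (unadjusted p = 0.0624), LAPTM4A differed by 0.12 and LAPTM5 by less than 0.01. MCOLN1 differed by 0.30, nearly all of it from the control array of experiment 2.

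TFEB had 11.77 and 11.76 in experiment 1 and 11.97 and 12.07 in experiment 2, higher by 0.25 (standard error 0.07, unadjusted p = 0.0285). Its second probe (hg19 chr6:41658820-41658879) had 10.93 and 10.65 against 10.86 and 10.80, a difference of 0.04, so the difference stood at the brighter probe (hg19 chr6:41651718-41651777) alone. Lipid hydrolases were lower in experiment 2 in 4 of 4 cases, against 53.1% of all tested genes (LIPA by 0.14, PPT1 by 0.12, ASAH1 by 0.05, SMPD1 by 0.02). The ASAH1 and SMPD1 differences were smaller than their standard errors of 0.08 and 0.09. At its dimmer probe PPT1 was higher in experiment 2, by 0.05. Of the 4 cofactors and carriers 3 were lower, against 53.1% of all tested genes. GRN was lower the most (-0.20, limma, unadjusted p = 0.0645), with NPC2 at -0.05 and PSAP at -0.13. None of these passed.

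Leaving out single arrays reduced the 11 genes. Without the miR-511 array of experiment 1, 4 genes passed (8.33%, against 9.86% of all tested genes), CTSF, LAMP2, NEU1 and SGSH. Without the control array of experiment 1, CTSF, LAMP1, NPC1 and SGSH remained of the 11, and CTSC and ARSB were added, for 6 in all (12.5%, against 14.6%). Without the miR-511 array of experiment 2 only CTSF remained of the 11, among 5 genes that passed with CTSW, CTSZ, GLA and MCOLN1 (10.4%, against 10.2%). Without the control array of experiment 2, CTSF, GAA and ARSA remained, among 4 with IDS (8.33%, against 8.53%). GLB1, IDUA and TFEB passed in none of these 4 fits, which have fewer arrays to estimate the spread, and all 11 genes kept their direction.

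**Figure D3:**
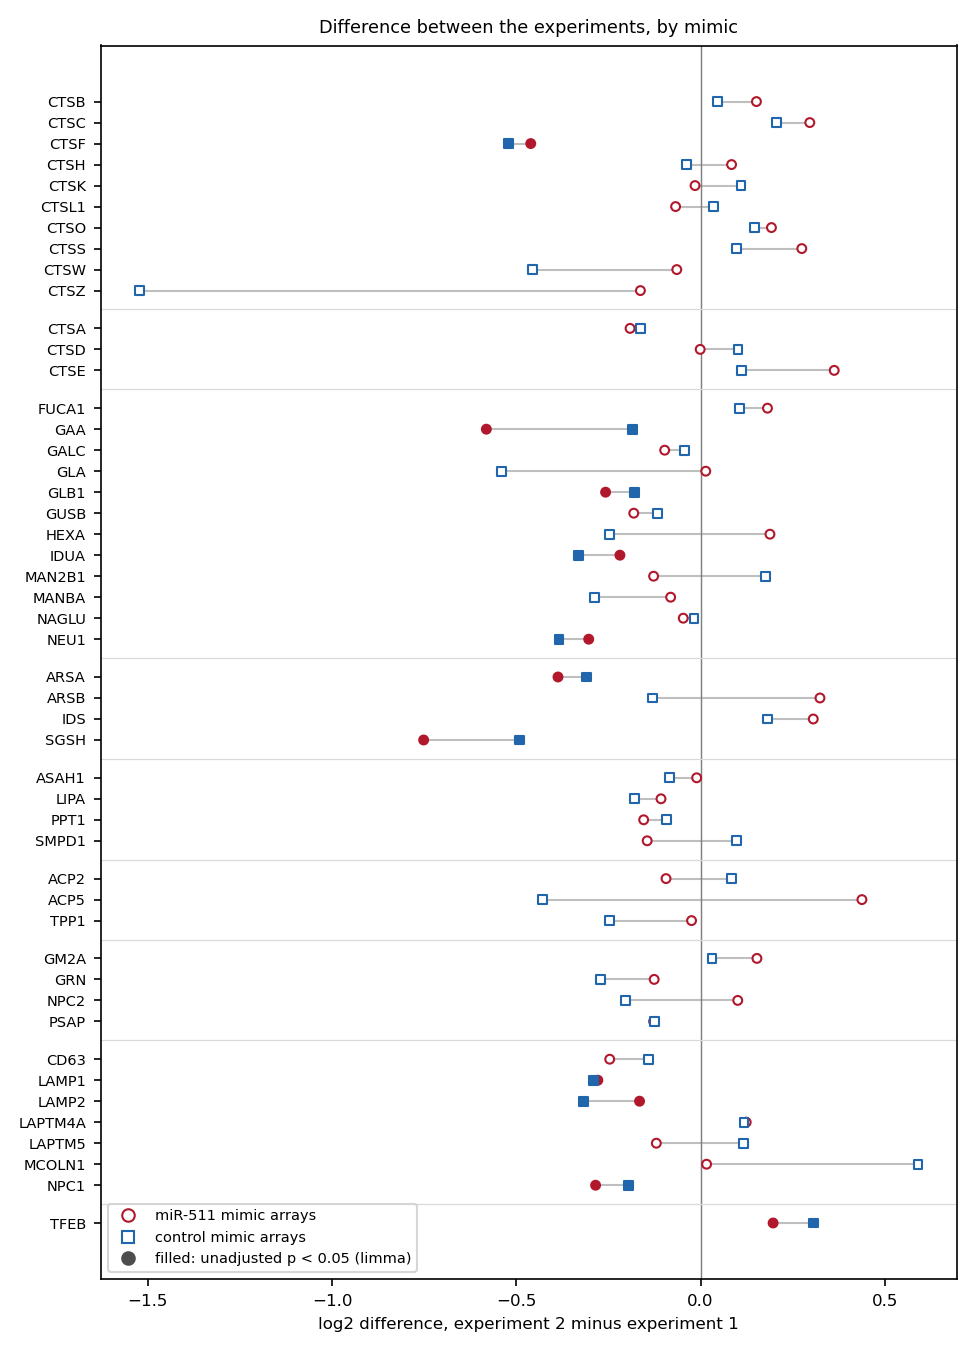
log2 difference, experiment 2 minus experiment 1, of the 48 tested genes (rows, grouped by role), with red circles for the miR-511 mimic arrays and blue squares for the control mimic arrays; each point is a difference of 2 arrays with no error bar, the grey line joins the points of a gene, and filled points mark the 11 genes past an unadjusted p of 0.05 in limma. The 11 genes have both points on the same side of 0, and CTSZ has the longest line, from -0.16 to -1.52.

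Different probes of a gene did not always give the same difference. The array annotation names different transcript records for the probes of CTSC, GALC, CTSZ, ACP2 and LAMP2, and the same record for both TFEB probes. What part this had in the differences was not tested. Of the 12 genes with more than 1 tested probe, 5 had probes whose treatment differences differed in sign and 4 had probes whose experiment differences did. The brightest CTSC probe (hg19 chr11:88033771-88042347, a span longer than the probe, so that it crosses at least 1 intron) was higher in experiment 2 by 0.25, while the probe at chr11:88061281-88061340 gave 10.96 and 11.07 against 10.84 and 10.72, a difference of -0.23. Neither passed. The second GALC probe (hg19 chr14:88429690-88429749) passed between the experiments, with 7.38 and 7.39 against 7.64 and 7.55 (0.21, unadjusted p = 0.0463), while its brighter probe differed by -0.07. The second CTSZ probe (hg19 chr20:57571653-57571712) gave 8.19 and 8.13 against 7.89 and 8.04, without the low control value of the brighter probe (hg19 chr20:57570361-57570420). For LAMP2 all 3 probes were lower in experiment 2, by 0.24, 0.15 and 0.11.

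**Figure D4:**
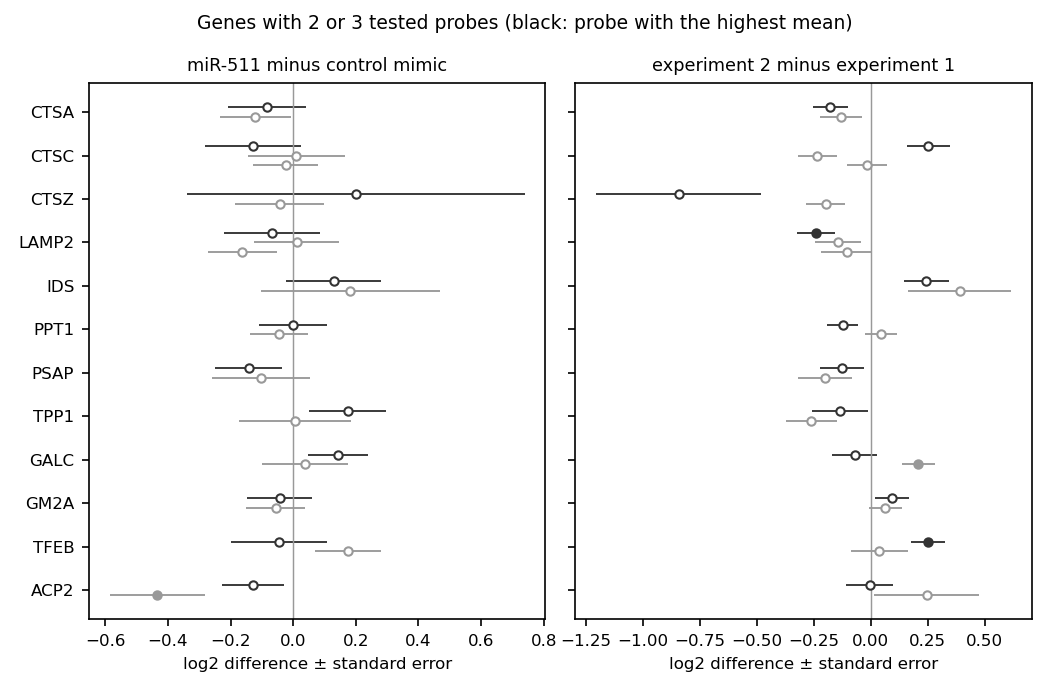
log2 difference with its limma standard error (bars) at each tested probe of the 12 genes with 2 or 3 tested probes, by treatment (left) and between experiments (right); black marks the probe with the highest mean, grey the other probes, and filled points an unadjusted p under 0.05. The CTSC probes lie on both sides of 0 between the experiments (0.25 and -0.23), and the dimmer ACP2 and GALC probes pass where the brighter ones do not.

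The counts were also read by the brightness of the probe. In bands chosen after the values were seen, 22 of the 48 genes had a mean log2 intensity above 12. Of these 22, 18 were lower with miR-511 mimic (background 45.6% of the tested genes in that band) and 18 were lower in experiment 2 (background 53.8%). Of the 22, 5 passed between the experiments (22.7%, against 8.47% in the band): LAMP1, LAMP2, GAA, GLB1 and NEU1, of which LAMP1 and NEU1 passed with a treatment term. Between 8 and 12, 5 of 18 genes passed (27.8%, against 13.0%), and below 8, 1 of 8 (12.5%, against 17.1%). Probe brightness was not adjusted for, and its part in these counts was not tested.

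Grouped by the promoter letters, again after the values were seen, 9 of the 10 genes with CACGTG in a window were lower with miR-511 mimic (45.9% of all tested genes), with a median of -0.11, LAMP1 being the exception. Only CTSA, CTSD, CTSF and NEU1 of them were lower in both experiments, while GAA, MCOLN1, CD63, ARSB and ACP5 had opposite directions in the experiments. Of the 25 genes with a window but no CACGTG, 16 were lower, with a median of -0.04. Of the 13 tested genes with no window held, 10 were lower, with a median of -0.07. Between the experiments, 6 of the 10, 16 of the 25 and 9 of the 13 were lower in experiment 2 (53.1% of all tested genes). Of the 10, 4 passed as lower (CTSF, GAA, LAMP1 and NEU1), as did 3 of the 25 and 3 of the 13, against 8.43% of all tested genes. With a treatment term GAA did not pass (unadjusted p = 0.0706). The 4 genes were picked as lower, so their direction cannot be set against that of TFEB. TFEB was higher in experiment 2 at 1 of its probes and did not pass with a treatment term (limma, unadjusted p = 0.0575). Higher in experiment 2 among the 10 were MCOLN1, with TCACGTGA (0.30), ARSB (0.10), CTSD (0.05) and ACP5 (0.004). The differences between these groups of genes were not tested.

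Other genes of the pathway, on 6 lists of 135 names (other lysosomal hydrolases, other membrane and transport proteins, the vacuolar ATPase, mannose 6-phosphate sorting, cathepsin inhibitors, and TFEB relatives with nutrient-sensing regulators), had 123 tested genes. By treatment 1 of 123 passed, against 2.12% of all tested genes: YWHAE, a 14-3-3 protein, with 7.81 and 7.79 with miR-511 mimic against 7.57 and 7.39 with control mimic (0.32, unadjusted p = 0.0403). The dimmer YWHAE probe differed by 0.09 and did not pass. A dimmer probe of MITF, a relative of TFEB, also passed, at 5.08 and 5.21 against 4.70 and 4.57 (0.50, limma, unadjusted p = 0.00878). The brighter MITF probes differed by 0.07 and 0.19, and neither passed. Of the 123, 56 were lower with miR-511 mimic (45.9% of all tested genes), with a median of 0.01. Between the experiments 13 of 123 passed (10.6%, against 13.8% of all tested genes), 7 as lower (background 8.43%) and 6 as higher (background 5.38%), and 83 were lower (67.5%, against 53.1%), with a median of -0.06. Lower ones included the sorting receptor SORT1 (-0.42) and SCARB2, the receptor that carries glucocerebrosidase (-0.22). DNASE2, the acid DNase (0.62), and the sorting receptor SORL1 (0.29) were among the higher ones.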

How the data were processed

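RNA of 4 THP1 cultures was labelled with Cy3 and hybridized to Agilent whole human genome arrays with 60-base probes. The authors deposited 1 scanner file per array from Agilent Feature Extraction (10.5.1.1 in the submitters' processing notes). Its processed intensity has background subtracted, holds a positive surrogate in place of very low spots, and was not scaled across arrays. A deposited table of quantile-normalized log2 values served only as an alternative. Groups and experiment numbers come from the labels.

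In R 4.3.3 with limma 3.58.1, log2 was taken of 43118 non-control spots per array. The 232 to 301 spots per array marked as outliers were left out, arrays were quantile normalized, and the spots of a probe (10 for 999 probes, otherwise 1) were averaged. Probes with 10 spots were taken as well above background when over 50% of them were. Where spots were not well above background, 52.1% to 60.8% were surrogate values. limma's lmFit and eBayes were fitted to all 22638 tested probes, for treatment without a block and for experiment without a treatment term, and p-values are two-sided, with a threshold of 0.05 before adjustment, as in the study's methods. Since each experiment gave 1 array per treatment, the treatment fit judges a difference against the spread between the 2 experiments within a mimic. The experiment fit judges it against the spread between the 2 mimics within an experiment. The number of arrays limits the precision of both. The fits were tested on simulated data.

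The experiment number pairs the arrays, since labels and methods describe independent experiments. Arrays with the same number deviated together from their group means (correlation 0.271). A test of whether the treatment difference itself differs between the experiments has no residual degrees of freedom and was not run. Alternatives were scaling, background correction, filters, marked spots, the deposited table and an intensity trend. Further ones were an ordinary t-test of the arrays, the mean over probes, the block or treatment term, and leaving out each array. The study's methods name a moderated t-test and a t-test over identical replicate probes, and the latter was not run.

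The genes, the lists and the named genes were chosen with earlier results of these data known. Named are genes with a probe past the threshold in either comparison, the 5 largest differences each way by treatment (same direction in both experiments) and between the experiments, and a set of well-known lysosomal genes; further genes of each role are given as values. Of the 63 probes, 59 matched RefSeq (GRCh38.p14) by accession, 58 with the same symbol and CTSL1 as CTSL. Coordinates of probes are those of hg19 in the files. Where in its transcript a probe lies was not analysed here. Values of a few genes outside the 49 are not reported here.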

Additional observations from a re-analysis of the deposited data

Results flagged for a closer look

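CTSZ, a lysosomal carboxypeptidase, stood out because its treatment difference at the brighter probe had opposite directions in the experiments: -0.48 in experiment 1 and 0.88 in experiment 2 on the log2 scale. The difference between the experiments was not tested, since with 1 array per treatment and experiment no residual degrees of freedom remain. The arrays gave 10.65 and 11.13 with miR-511 and control mimic in experiment 1 and 10.49 and 9.61 in experiment 2. The second CTSZ probe gave 0.06 and -0.15. Without the control array of experiment 2 the treatment difference at the brighter probe was -0.56, and without the control array of experiment 1 it was 0.96.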

How the results depend on the processing

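By treatment, the count of lysosomal genes past the threshold was 1 (2.12% of all tested genes passed). It was 0 with 75th percentile scaling (2.01% of all tested genes) and with an ordinary t-test of the arrays (3.05%). With normexp it was 2, CTSD and LAPTM4A (1.16% of all tested genes). Leaving out single arrays gave a median difference by treatment of -0.10 to -0.0013. With the experiment number as a replicate block the count was 1, LAPTM4A (limma, unadjusted p = 0.03), against 3.88% of all tested genes. The pairing thus changed no call of a lysosomal gene by treatment. Between the experiments, the count of 11 became 7 with no filter on dim probes (14.3%, against 10.2% of all tested genes) and 18 with an intensity trend (37.5%, against 15.2%). It was 7 with an ordinary t-test of the arrays (14.6%, against 11.9%) and 6 with a treatment term (12.5%, against 11.8%). Without single arrays it was 4 to 6, with a median of -0.1159 to -0.0455. Of the other pathway genes, 1 passed by treatment. With 75th percentile scaling, an ordinary t-test of the arrays or the mean over probes 0 passed, against 2.01%, 3.05% and 2.27% of all tested genes. Between the experiments 13 passed (against 13.8% of all tested genes), 28 with normexp (against 14.5%) and 24 with an intensity trend (against 15.2%). Without single arrays 7 to 12 passed, against 8.53% to 14.6% of all tested genes.

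In settings other than single arrays, named genes changed sign in 11 cases. By treatment with normexp, GLB1 was at -0.0397, IDUA at -0.0022 and CTSE at 0.0232. Between the experiments with 75th percentile scaling, HEXA was at 0.0115 and CTSL1 at 0.0117, and ACP2 was at 0.0019 with marked spots kept and at 0.0038 in the deposited table. With the mean over probes, a setting chosen for single genes after seeing the data, TFEB by treatment was at 0.065, and between the experiments ACP2 was at 0.1192, GALC at 0.0689 and CTSC at -2e-04. In the other cases run the sign held, in 551 of them on the same side of the threshold. Without single arrays the sign changed in 46 cases. By treatment the ranges of these genes were LAMP1 -0.0311 to 0.26, NPC1 -0.0599 to 0.23, GLB1 -0.13 to 0.13, IDUA -0.15 to 0.18, SGSH -0.13 to 0.62, TFEB -0.20 to 0.11, CTSC -0.28 to 0.0194, CTSE -0.20 to 0.16, CTSS -0.20 to 0.0787, CTSF -0.34 to 0.18, LAMP2 -0.23 to 0.0911, GAA -0.33 to 0.25, NEU1 -0.33 to 0.0525, CD63 -0.17 to 0.0732, GRN -0.18 to 0.0931, ARSA -0.38 to 0.0036, IDS -0.023 to 0.28, MCOLN1 -0.48 to 0.11 and CTSZ -0.56 to 0.96. Between the experiments they were LAPTM4A -0.032 to 0.27, GALC -0.16 to 0.014, CTSD -0.0771 to 0.18, CTSB -0.0069 to 0.21, ACP2 -0.11 to 0.10, HEXA -0.28 to 0.23, NPC2 -0.20 to 0.10, CTSL1 -0.0825 to 0.0486, CTSW -0.52 to 0.0005 and TPP1 -0.28 to 0.007. Probes near background, as CTSE and ACP5 were, limit the precision of small differences. A lone array left in a group was assumed to vary like the others, and the cause of each change was not tested.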
